A study of Mus musculus with 12 samples.

Results

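The comparison described here is of the liver transcriptome of MED13-LKO mice with that of control mice after refeeding with sucrose. It takes in 4 of the 12 RNA-seq libraries of the series, 2 mice for each genotype, which were chosen by their labelled genotype and diet and by no measured value. All 4 mice were labelled C57BL6J, 12 weeks old, and were given normal laboratory chow with 30% sucrose in the drinking water for 4 h, following an overnight fast. Both genotypes carried the floxed Med13 allele (Med13 fl/fl). The MED13-LKO mice also carried an Albumin-Cre transgene, whose promoter is active in hepatocytes, and the control mice carried no Cre. The sequenced material was total RNA of whole liver, and the labels give no sex. The other 8 libraries, 2 per genotype from mice fasted for 16 h and 2 per genotype from mice given chow with 30% fructose water for 4 h, were used to show where the values with sucrose differed from those in other mice. The labels number the libraries as replicates, each taken here as 1 mouse, and do not say whether these shared a litter or cage, so that the p-values measure only the spread between these samples.

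Mediator is the large complex that carries the signal of DNA-bound transcription factors to RNA polymerase II. MED13 is the subunit that joins the kinase module (MED12, CDK8 or CDK19, cyclin C) to the core of the complex. In the liver, feeding after a fast raises insulin and the flux of sugar, and through SREBP-1c, ChREBP and LXR turns on glycolytic and lipogenic genes, while the genes of sterol synthesis follow SREBP-2 and the folding capacity of the endoplasmic reticulum follows ATF6 and XBP1. The question asked of this comparison was how the fed expression of such genes stands when MED13 has been deleted from hepatocytes. Values are the deposited normalized counts per gene, which are not corrected for gene length and are compared only within a gene, and log2 fold changes are MED13-LKO minus control on log2(normalized count + 1), ± SE.

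The targeted gene itself was listed at 578 and 673 in control and 646 and 717 in MED13-LKO (log2 fold change 0.13 ± 0.20, adjusted p = 0.784 by limma with Benjamini-Hochberg adjustment), so that its RNA was no lower in the libraries labelled MED13-LKO. A value summed over the gene does not show whether the floxed exons are missing, and the label is therefore used as given and was not checked by these files. The genes of its kinase module partners were tested too: of 7 genes none was called, and Cdk8 was at 704 and 714 in control and 714 and 703 in MED13-LKO and Ccnc at 405 and 480.2 in control and 359.9 and 532 in MED13-LKO. The smallest p-values of the 7 were those of Cdk19 (0.61 ± 0.26, adjusted p = 0.217) and Med12l (2.08 ± 0.97, adjusted p = 0.251). Of 26 genes of core Mediator, 1 was called, Med30 (58.3 and 69.3 in control and 119 and 112 in MED13-LKO, log2 fold change 0.85 ± 0.18, adjusted p = 0.024), and the median over the 26 was -0.06.

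The 4 libraries held about 21180000 and 21410000 reads counted on genes in control and 24200000 and 21530000 in MED13-LKO, as read from the smallest step between the values of a library. Their normalized counts summed to 21250000 and 22130000 in control and to 17420000 and 18180000 in MED13-LKO, and the 100 most abundant genes took 49.4% and 50.4% of that sum in control and 44.7% and 46.2% in MED13-LKO. Of the summed difference, Alb made up 13.6% and the Mup genes 14.5%. The 10 hepatocyte markers were all present, and summed to 2825190 and 3090830 in control and 2121950 and 2346740 in MED13-LKO. The 11 Kupffer cell markers summed to 6194 and 4870 in control and to 6216 and 6372 in MED13-LKO, with Cd5l (1270.4 and 947 against 1609 and 1636) and Marco (75.1 and 62.96 against 234 and 184) called higher. Erythroid markers summed to 12231 and 12276 against 5737 and 9674. The sums of the sinusoidal endothelial markers were higher in MED13-LKO (6765 to 6913) than in control (5649 to 6358), while those of the stellate (7638 to 8637 in control, 7120 to 7907 in MED13-LKO) and lymphocyte markers (213 to 304, 296 to 301) overlapped. The 5 neutrophil markers were low but higher in MED13-LKO, with sums of 4.05 and 9.38 in control and 42 and 23.2 in MED13-LKO, and adipocyte and pancreatic markers summed to 12.6 at most in these libraries. The part of these shifts in the results was not tested.

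At an adjusted p under 0.05, 746 of 12366 genes tested (6.03%) differed between the genotypes with sucrose. Of these, 334 rose in MED13-LKO (2.7% of those tested) and 412 fell (3.33%), and 2642 genes had an unadjusted p under 0.05. The genes that rose moved further: their median log2 fold change was 1.02 against -0.64 for those that fell, and 169 rose and 117 fell by more than 1 on the log2 scale. The median over all genes tested was 0. In every called gene the 2 control and 2 MED13-LKO values did not overlap, but with 2 mice a group this holds for 53.2% of all genes tested (26% with MED13-LKO higher, 27.2% with it lower), so non-overlap is given below only as a description. The number of called genes rests on each mouse. It was 361 and 310 without control replicate 1 and 2, and 149 and 294 without MED13-LKO replicate 1 and 2. The rule for naming genes took 183 that were called, of which 60 passed under every alternative they were tested in, 47 were lost only in a fit without 1 library, and none changed sign while called. Numbers of list members called without 1 library are given below in that same order, control replicate 1, control replicate 2, MED13-LKO replicate 1 and MED13-LKO replicate 2. All counts of list members called are to be read beside the 6.03% of all genes. Among lists with a call, those nearest that share were core Mediator (3.85%), clock (5.56%), heat shock (6.67%) and nuclear receptors (7.69%). Next came lipogenic transcription factors and insulin signalling (8.33% each), acute phase (9.52%) and ChREBP targets (10%).

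**Figure D1:**
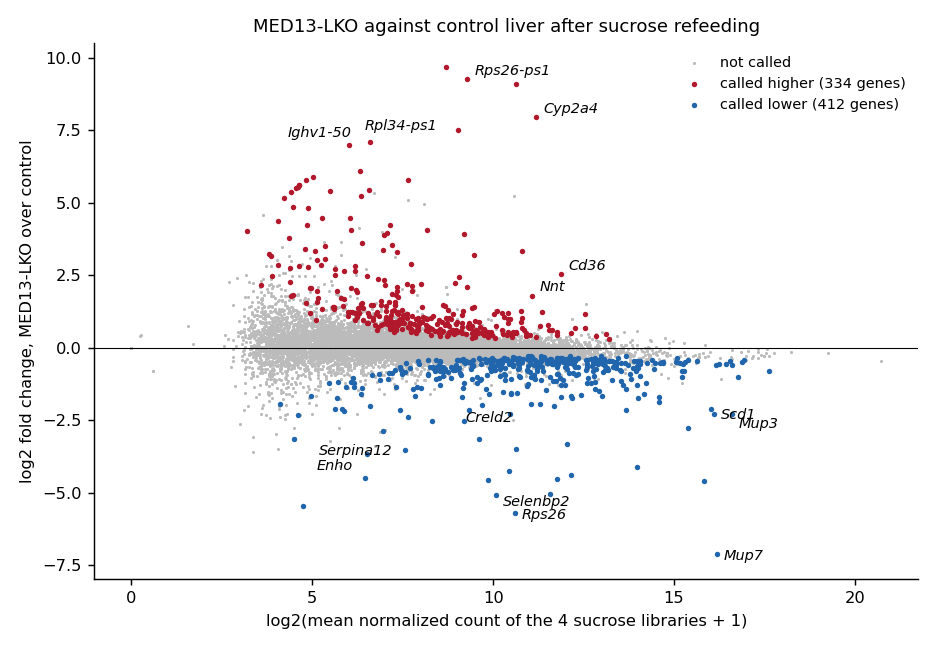
Log2 fold change of each of the 12366 genes tested (y axis, MED13-LKO minus control with sucrose) against the log2 of its mean normalized count over the 4 sucrose libraries plus 1 (x axis). Red points are the 334 genes called higher, blue points the 412 called lower, grey points the rest; the widest increases are Gm12191, Rps26-ps1, Rps3a2 and Cyp2a4, and the widest decreases Mup7 and Rps26.

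Several genes that make fatty acids were lower in the livers labelled MED13-LKO after sucrose. Of 18 lipogenic enzymes and suppliers, 7 fell and none rose, and the median log2 fold change was -1.07 beside 0 over all genes. Me1, malic enzyme, which supplies NADPH, was at 14994 and 9907 in control and 3431 and 4345 in MED13-LKO, or 0.312 times the control mean, and its difference of -1.66 ± 0.17, adjusted p = 0.000509, passed under every alternative. Both MED13-LKO values lay under both control values. Scd1, the stearoyl-CoA desaturase that makes monounsaturated fatty acids, was at 167333 and 67058 in control and 13932 and 34362 in MED13-LKO (-2.28 ± 0.50, adjusted p = 0.0274), and here the control mice themselves differed more than the nearer values of the 2 genotypes did. Acly, which makes cytosolic acetyl-CoA from citrate, was at 52529 and 24448 in control and 7179 and 13697 in MED13-LKO (-1.85 ± 0.36, adjusted p = 0.0168). Fasn, the fatty acid synthase, was at 35838 and 19511 in control and 5983 and 12721 in MED13-LKO (-1.60 ± 0.37, adjusted p = 0.0323). In these last 3 genes, as in Elovl6, which lengthens palmitate (32459 and 17706 against 5166 and 10035, -1.74 ± 0.41), control replicate 1 was the highest library and MED13-LKO replicate 1 the lowest of the 4. Acss2, which activates acetate, fell by 1.14 on the log2 scale (SE 0.24, adjusted p = 0.0244), and Elovl5, an elongase of polyunsaturated fatty acids, by 1.0 (SE 0.12, adjusted p = 0.00163). Elovl5, at 4575 and 3601 in control and 1978 and 2080.1 in MED13-LKO, also passed under every alternative.

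The other 11 members did not pass. Acaca, acetyl-CoA carboxylase, was at 11961 and 8757 in control and 3822 and 6143 in MED13-LKO (-1.08 ± 0.28, adjusted p = 0.0532), and Thrsp, a protein induced with lipogenesis, at 44733 and 33356 in control and 13669.5 and 25296 in MED13-LKO (-1.05 ± 0.52, adjusted p = 0.283). Fads1 and Fads2, the desaturases of polyunsaturated fatty acids, had log2 fold changes of 0.11 and 0.35 and were the 2 members with a positive value. The number of members that fell was 2, 7, 2 and 7 without each library in turn, and was 2 without the mean-variance trend or with only these 4 libraries in the fit. The whole list had medians of -0.79 to -1.43 across these fits. In bulk liver, fewer cells of a type and less RNA per cell cannot be told apart, and the hepatocyte marker list had a median of -0.36, with 2 of its 10 genes called lower. Of 12 transcription factors and partners that drive lipogenesis, 1 fell: Insig1, the sterol-regulated anchor that holds SREBP in the endoplasmic reticulum and is itself an SREBP target, at 21229 and 16328 in control and 5149 and 9333 in MED13-LKO (-1.43 ± 0.28, adjusted p = 0.0159), a call lost without control replicate 1 or MED13-LKO replicate 1. Srebf1, which encodes SREBP-1, was at 19239 and 12668 in control and 8685 and 10314 in MED13-LKO (-0.72 ± 0.27, adjusted p = 0.153), and Mlxipl, which encodes ChREBP, at 5968 and 5524 in control and 3784 and 4789 in MED13-LKO (-0.43 ± 0.13, adjusted p = 0.0888). Mlx, the partner of ChREBP (-0.09 ± 0.12), Nr1h3, which encodes LXRα (0.15 ± 0.08), and Usf1 (0.11 ± 0.17) had adjusted p-values of 0.718, 0.334 and 0.786.

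Genes of sterol synthesis were lower as well. Of 23 genes of cholesterol synthesis and uptake, 11 fell and none rose, with a median log2 fold change of -0.85. The members called spanned the pathway from its start to its end. Hmgcs1, which makes HMG-CoA, was at 4652 and 4629 in control and 2249 and 2760.1 in MED13-LKO (-0.90 ± 0.13, adjusted p = 0.00365). Mvd, the mevalonate decarboxylase, was at 969.6 and 737 in control and 227 and 297 in MED13-LKO (-1.70 ± 0.31, adjusted p = 0.0122). In both genes the control pair lay above the MED13-LKO pair with a gap wider than the spread within either pair. Fdps, which makes farnesyl diphosphate (6801 and 6960 against 1771 and 2625, -1.67 ± 0.28), Sqle, squalene epoxidase (2791 and 2765 against 1053 and 1310, -1.24 ± 0.28), and Sc5d, which acts late in the pathway (16646 and 15732 against 6475 and 8477, -1.13 ± 0.13), were lower too. Pmvk, Cyp51, Tm7sf2, Msmo1 and Nsdhl were also called, with log2 fold changes from -1.11 to -0.39. Hmgcs1 and Sc5d passed under every alternative, while the number of members that fell was 3, 3, 2 and 7 without each library in turn.

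RefSeq promoter entries (GRCm38.p6, 250 bases before the start of transcription) were found for 15 of the 23 sterol genes and 15 of the 18 lipogenic enzymes. The letters TCACNCCAC, the sterol regulatory element of textbook SREBP targets, were searched on both strands. They occurred in 1 of the 15 sterol genes and in 0 of the 15 lipogenic enzymes, beside 124 of the 9618 tested genes with an entry (1.29%) and 346 of all 32851 windows (1.05%). The sterol gene was Hmgcs1, whose upstream window at chr13:119690101-119690350, plus strand, is shown with the match in capitals, 128 bases before the start, since it is the only one of the sterol genes with these letters in the window.
Hmgcs1: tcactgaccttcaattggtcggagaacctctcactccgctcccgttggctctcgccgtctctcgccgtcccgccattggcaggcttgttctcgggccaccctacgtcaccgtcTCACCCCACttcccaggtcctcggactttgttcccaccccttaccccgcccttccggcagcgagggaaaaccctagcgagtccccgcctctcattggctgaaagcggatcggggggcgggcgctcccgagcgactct
The match describes the sequence alone, and binding was not measured.

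Chaperones and folding enzymes of the endoplasmic reticulum (ER) formed the third group of lower genes. Of 22, 11 fell and none rose. All 22 had a negative log2 fold change, with a median of -0.74. In all 22 the MED13-LKO values lay below the control values, as in 21 of the 23 sterol genes and 27.2% of all genes tested. Creld2, a secreted stress-induced chaperone partner, was at 3511 and 3147 in control and 928 and 817 in MED13-LKO (-1.93 ± 0.44, adjusted p = 0.0317). Hyou1, a large chaperone of the organelle, was at 9847 and 8947 in control and 4499 and 3612 in MED13-LKO (-1.22 ± 0.26, adjusted p = 0.0258). Dnajb9, a co-chaperone of BiP, was at 3291 and 2946 in control and 1579.7 and 1392 in MED13-LKO (-1.07 ± 0.18, adjusted p = 0.00919). In all 3 genes the replicates lay closer to each other than the genotypes did. Sel1l, which holds the ubiquitin ligase of ER-associated degradation, was at 6948 and 6138 in control and 3587 and 3202 in MED13-LKO (-0.95 ± 0.16, adjusted p = 0.00987), and the ligase itself, Syvn1, which was in no list, at 4505 and 3525 in control and 1255 and 854 in MED13-LKO (-1.94 ± 0.36, adjusted p = 0.0122). Manf, Pdia4, Dnajb11, Dnajc3, Herpud1, Pdia3 and Ppib were the other members called, with log2 fold changes from -1.28 to -0.64. Hspa5, which encodes BiP, the main chaperone, was at 55488 and 50870 in control and 23051 and 22714 in MED13-LKO (-1.22 ± 0.34, adjusted p = 0.0657), and Hsp90b1 at 34064 and 31983 in control and 17501 and 18138 in MED13-LKO (-0.89 ± 0.28, adjusted p = 0.1); both missed the threshold. Among the sensors and factors of the stress response, Xbp1 had -0.31 ± 0.24, Atf4 -0.27 ± 0.17 and Ddit3 -0.57 ± 0.15, with adjusted p-values of 0.514, 0.419 and 0.0518. The calls of this list rest on all 4 mice: 1, 2, 0 and 0 members were called without each library in turn, while the median stayed between -0.72 and -0.80. Of 15 cytosolic heat shock genes, 1 fell (6.67%, beside 6.03% of all genes tested), Hsp90ab1 (19414 and 20378 against 14806 and 14148, -0.46 ± 0.08), and the median was -0.20.

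The ER stress element, which ATF6 binds with NF-Y, is CCAAT, a spacer of 9 bases and CCACG. On either strand it was present upstream of 7 of the 19 chaperone genes with a promoter entry (36.8%), beside 17 of the 9618 tested genes (0.177%) and 37 of all 32851 windows (0.113%). That share describes a list chosen by function and is no result of the measured values, and binding was not measured. Of the 9 chaperone genes that fell and had an entry, 2 held it, Creld2 at chr15:88819396-88819645 and Dnajc3 at chr14:118937682-118937931, both on the plus strand. Their windows are shown since they carry the same letters in the 2 orientations, with the match in capitals, 107 bases before the start in Creld2, where it reads on the opposite strand, and 86 in Dnajc3.
Creld2: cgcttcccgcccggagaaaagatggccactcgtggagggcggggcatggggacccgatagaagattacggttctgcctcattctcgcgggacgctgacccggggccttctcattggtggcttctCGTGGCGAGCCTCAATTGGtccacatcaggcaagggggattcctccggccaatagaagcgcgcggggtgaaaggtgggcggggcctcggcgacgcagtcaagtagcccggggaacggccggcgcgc
Dnajc3: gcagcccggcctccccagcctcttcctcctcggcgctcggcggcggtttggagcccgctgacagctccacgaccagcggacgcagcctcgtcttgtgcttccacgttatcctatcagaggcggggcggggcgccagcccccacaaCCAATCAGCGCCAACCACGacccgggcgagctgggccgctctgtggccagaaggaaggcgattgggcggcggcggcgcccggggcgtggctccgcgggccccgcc

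**Figure D2:**
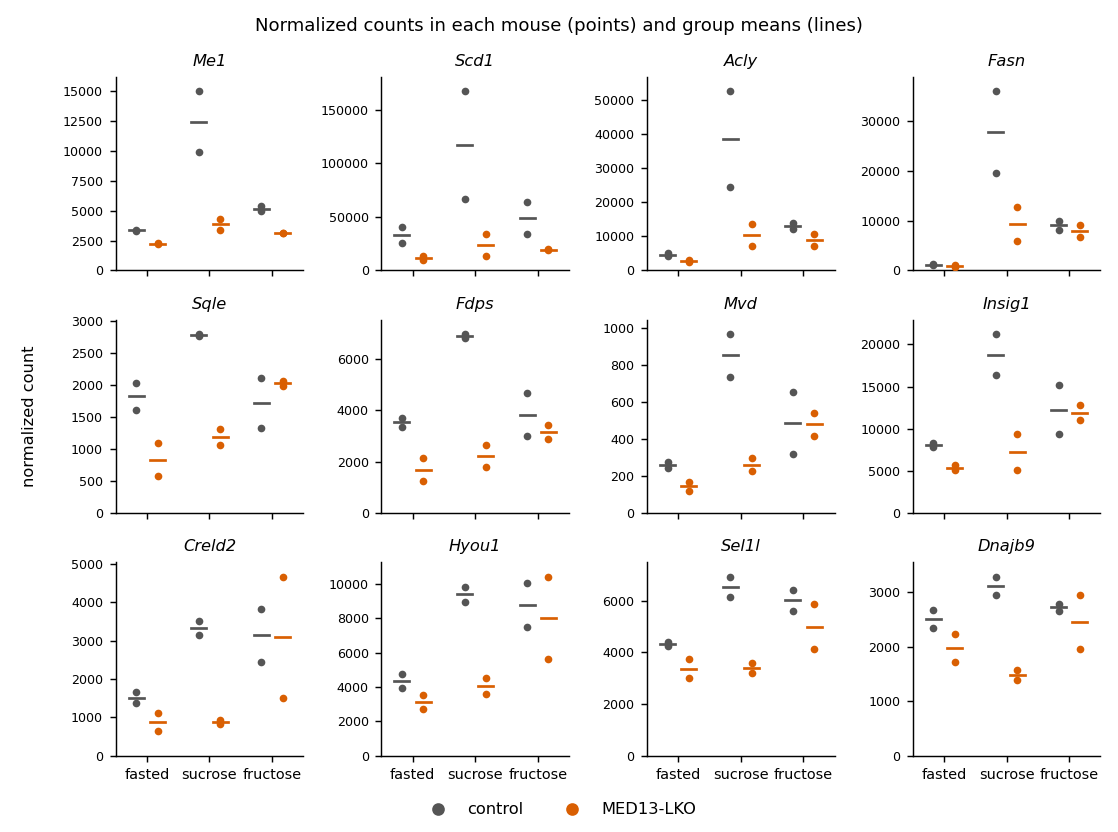
Normalized counts (y axis, linear from 0) of 12 genes of fatty acid synthesis, sterol synthesis and the endoplasmic reticulum in the fasted state, with sucrose and with fructose (x axis), 1 point per mouse, with a line at the mean of each group of 2. With sucrose the MED13-LKO points lie below the control points in all 12 genes, from 3431 and 4345 against 14994 and 9907 in Me1 to 1580 and 1392 against 3291 and 2946 in Dnajb9.

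Set against the fasted mice of the same genotype, the lipogenic genes Fasn, Acly and Me1 were raised by sucrose in both, while Scd1 passed in neither (1.70, adjusted p = 0.0639, in control and 0.94, adjusted p = 0.32, in MED13-LKO). The log2 difference of sucrose from fasting was 4.48 (adjusted p = 0.000313) in control and 3.35 (adjusted p = 0.0016) in MED13-LKO for Fasn. It was 2.94 (adjusted p = 0.00126) in control and 1.78 (adjusted p = 0.0208) in MED13-LKO for Acly, and 1.86 (adjusted p = 0.000391) in control and 0.78 (adjusted p = 0.0275) in MED13-LKO for Me1. In all 3 the value was larger in control. For the sterol gene Mvd it was 1.70 (adjusted p = 0.01) in control and 0.86 (adjusted p = 0.144) in MED13-LKO. For Hyou1 of the endoplasmic reticulum it was 1.12 (adjusted p = 0.0294) in control and 0.38 (adjusted p = 0.46) in MED13-LKO. For Insig1 it was 1.20 (adjusted p = 0.0261) in control and 0.37 (adjusted p = 0.498) in MED13-LKO. A call in one genotype and not in the other is not a test of the difference: in the test of the genotype difference with sucrose against that in the fasted state, no member of the 3 groups passed, and the smallest adjusted p was 0.235 among lipogenic enzymes, 0.564 among sterol genes and 0.185 among ER chaperones. Against fructose the smallest were 0.502, 0.0523 and 0.577.

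In the mice of the other diets, which share no library with this comparison, the medians of the same groups lay nearer to 0, a difference between diets that was not tested for the groups. The genotype medians of the lipogenic enzymes were -0.43 in the fasted state (1 lower and 2 higher) and -0.15 with fructose (1 lower), those of the sterol genes -0.66 (6 lower) and 0.08 (none lower, 1 higher), and those of the ER chaperones -0.43 (2 lower and 1 higher) and -0.25 (none). With fructose, MED13-LKO replicate 2 reached 10439 for Hyou1 and replicate 1 only 5656, a wider spread than the 2 mice with sucrose showed. All genes together gave 1110 calls in the fasted state (8.98%, of which 4.12% higher and 4.86% lower) and 951 with fructose (7.69%, 3.74% and 3.95%).

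Genes of sugar handling fell in part. Of 13 glycolytic genes 4 fell (median -0.45), of 8 genes of fructose metabolism 4 (median -0.52, with 1 gene in both lists), of 10 targets of ChREBP 1 (Tkfc, median -0.42), and none rose. Tkfc, the triokinase of the fructose pathway, was at 19536 and 14976 in control and 5941 and 8431 in MED13-LKO (-1.27 ± 0.22, adjusted p = 0.00915). Slc2a2, the glucose and fructose transporter GLUT2, was at 13950.4 and 13068 in control and 5453 and 7143 in MED13-LKO (-1.11 ± 0.22, adjusted p = 0.0181). The control values were the higher pair in both genes. Gpi1, Gapdh and Eno1 of glycolysis fell by 0.76, 0.49 and 0.45 on the log2 scale, and Sord, sorbitol dehydrogenase, by 0.49. Khk, ketohexokinase (2340.3 and 1999.8 against 1289 and 1660, -0.56 ± 0.21, adjusted p = 0.161), and Pklr, liver pyruvate kinase (-0.86 ± 0.25, adjusted p = 0.0775), did not pass. The fits without each library called 1, 1, 0 and 3 fructose genes and 0, 2, 0 and 2 glycolytic genes.

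Of 13 genes of gluconeogenesis, 2 fell: Fbp1, fructose-1,6-bisphosphatase, at 20479 and 16552 in control and 10866 and 11906 in MED13-LKO (-0.69 ± 0.11, adjusted p = 0.00779), and Slc37a4, the glucose 6-phosphate transporter, at 7838 and 7278 in control and 4138 and 5506 in MED13-LKO (-0.66 ± 0.13, adjusted p = 0.0198). G6pc, the catalytic subunit of glucose-6-phosphatase, was at 3077 and 3178 in control and 5895 and 6498 in MED13-LKO, so that both MED13-LKO values lay above both control values, but its difference of 0.98 ± 0.28, adjusted p = 0.0748, missed the threshold. It passed with a replicate block (adjusted p = 0.0265) and with only these 4 libraries in the fit (adjusted p = 0.00412), and not under the other alternatives (the highest adjusted p was 0.272). Pck1, which makes phosphoenolpyruvate, was at 4235 and 9921 in control and 11275 and 7814 in MED13-LKO with overlapping groups (0.53 ± 0.71, adjusted p = 0.74). Of 16 glycogen genes, 2 fell, Ugp2, which makes UDP-glucose (16042 and 14214 against 8096 and 9441, -0.79 ± 0.10, adjusted p = 0.00176), and Pygl, liver glycogen phosphorylase (14448 and 13835 against 9384 and 10223, -0.53 ± 0.12, adjusted p = 0.0317). Gys2, liver glycogen synthase (-0.30 ± 0.13), Gbe1, the branching enzyme (-0.05 ± 0.11), and Phkb, a subunit of phosphorylase kinase (0.24 ± 0.18), had adjusted p-values of 0.224, 0.861 and 0.493. Foxo1 was at 653 and 737 in control and 506 and 533 in MED13-LKO (-0.42 ± 0.22, adjusted p = 0.324). Of 12 genes of insulin and FOXO1 signalling, 1 fell, Enho, which encodes the secreted peptide adropin, at 121 and 219 in control and 12.2 and 11.8 in MED13-LKO (-3.66 ± 0.36, adjusted p = 0.000437), and it passed under every alternative.

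Genes that differ between the sexes in mouse liver were called in part. Of 30 genes known to be higher in females, 14 rose and none fell (median 0.84), and of 28 known to be higher in males, 9 fell and 1 rose (median -0.57). Among those that share under 10% of their sequence with another gene, 6 of 17 female-biased genes rose (median 0.48), and of 14 male-biased genes 2 fell and 1 rose (median -0.43). Cyp2a4, a testosterone hydroxylase, was at 21.03 and 13.4 in control and 5958 and 3327 in MED13-LKO (7.96 ± 0.37, adjusted p = 2.07e-06). Both MED13-LKO values were far above both control values. Of the 31-base stretches of Cyp2a4, 58.9% occur in another gene, and its close relative Cyp2a5 was at 35965 and 39329 in control and 36391 and 47963 in MED13-LKO. Cd36, a fatty acid transporter with no such sharing, was at 1042 and 1141 in control and 6843 and 6027 in MED13-LKO (2.56 ± 0.21, adjusted p = 0.000154), or 5.89 times the control mean. Cux2, a transcription factor of female liver, was at 68.3 and 56.9 in control and 229 and 230.0 in MED13-LKO (1.86 ± 0.24, adjusted p = 0.00224). In both genes the pairs were narrow and far apart. Hamp2, hepcidin 2, was at 529.8 and 179 in control and 2523 and 3891 in MED13-LKO (3.34 ± 0.57, adjusted p = 0.00902), and Slc22a26, an organic anion transporter, at 21.3 and 22.9 in control and 275 and 267 in MED13-LKO (3.56 ± 0.46, adjusted p = 0.00202). Cyp2c69, Sult1e1, A1bg, Ntrk2, Slc22a27, Abcb1a, Lpl, Cyp39a1 and Rtn4 also rose, by 0.63 to 5.23 on the log2 scale. Of the lists, 7, 8, 4 and 5 female-biased genes rose and 6, 4, 5 and 5 male-biased genes fell without each library in turn.

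Among the male-biased genes, Selenbp2, a selenium-binding protein, was at 1958 and 2231 in control and 57.8 and 64.4 in MED13-LKO (-5.08 ± 0.72, adjusted p = 0.00368). Hsd3b5, a steroid dehydrogenase of male liver, was at 1199 and 2394 in control and 101 and 49.8 in MED13-LKO (-4.56 ± 0.71, adjusted p = 0.00583). Serpina12, the adipokine vaspin, which has under 10% shared sequence, was at 321 and 377 in control and 27.98 and 31.3 in MED13-LKO (-3.51 ± 0.51, adjusted p = 0.00392). In these 3 genes every MED13-LKO value lay far under every control value. Cyp2d9, Cyp2f2, Serpina1e, C8a, Mup3 and Mup7 fell too. The exception was Gna14, a G protein subunit, which rose from 75 and 64.97 to 345 and 304 (2.20 ± 0.32, adjusted p = 0.00392), and Cyp4a12a, a male-biased arachidonic acid hydroxylase, was at 4392 and 4072 in control and 3373 and 8083 in MED13-LKO with overlapping groups (0.30 ± 0.44). Of the Mup genes, which encode the major urinary proteins, 12 of 18 fell and none rose, with a median of -2.80, and 8, 8, 4 and 7 fell without each library in turn. Beside Mup3 and Mup7, those called were Mup1, Mup2, Mup8, Mup9, Mup11, Mup12, Mup14, Mup15, Mup17 and Mup19, which fell by 2.28 to 5.04 on the log2 scale. Mup7 was at 151567 and 142469 in control and 1114 and 1001 in MED13-LKO (-7.12 ± 0.81, adjusted p = 0.000923) and Mup3 at 158762 and 168583 in control and 29941 and 37842 in MED13-LKO (-2.28 ± 0.30, adjusted p = 0.00241). The called members share 30% to 100% of their subsequences with other genes, so single Mup values are uncertain. Their sum over the 21 Mup genes listed was 682928 and 729253 in control and 132981 and 153151 in MED13-LKO, which does not depend on how reads were divided among them. Sex-chromosome genes gave no call among 4 tested: Eif2s3y was at 1387 and 1375 in control and 1137 and 1246 in MED13-LKO and Uty at 310.3 and 332 in control and 428 and 446 in MED13-LKO (adjusted p = 0.065), and both were present in all 4 mice. Of 15 genes of the growth hormone axis, Ghr, its receptor, fell (11756 and 11538 against 8263 and 8686, -0.46 ± 0.08, adjusted p = 0.00943) with Igf1 (10599.8 and 11074 against 8720 and 7218, -0.45 ± 0.10, adjusted p = 0.0295), and Cux2 rose; Stat5b, which signals from the receptor, was at 848 and 889 in control and 910.2 and 944 in MED13-LKO (adjusted p = 0.837). In the fasted state and with fructose, 11 and 12 of the 30 female-biased genes rose and 12 and 13 of the 28 male-biased genes fell.

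**Figure D3:**
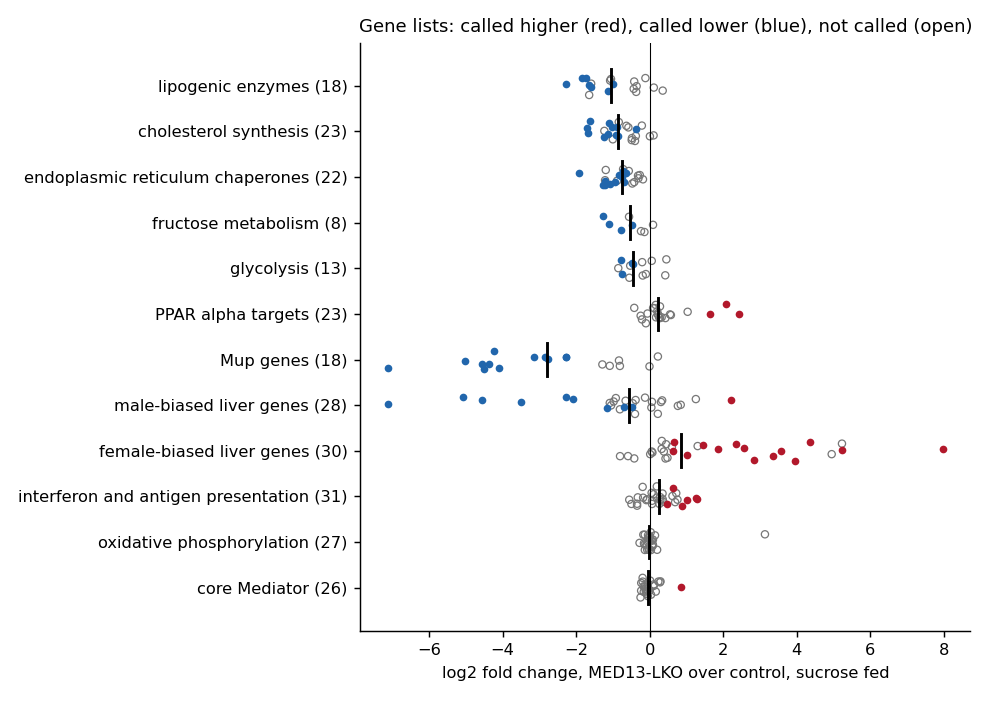
Log2 fold change with sucrose (MED13-LKO minus control) of each tested member of 12 gene lists, 1 point per gene, filled where called at an adjusted p under 0.05 and open where not, with a black bar at the median of the list. The Mup genes (median -2.80) and the lipogenic (-1.07), sterol (-0.85) and ER chaperone lists (-0.74) lie below 0, the female-biased list (0.84) lies above it.

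Of 23 targets of PPARα, 3 rose and none fell (median 0.23): Cyp4a31, a fatty acid ω-hydroxylase (122 and 221 against 968 and 815, 2.43 ± 0.47, adjusted p = 0.0159), and the acyl-CoA thioesterases Acot1 (155 and 334 against 1167 and 804, 2.08 ± 0.33, adjusted p = 0.00699) and Acot2 (52.05 and 62.9 against 185 and 172, 1.63 ± 0.30, adjusted p = 0.0137). Each of the 3 shares over 20% of its subsequences with other genes. Cpt1a, which admits fatty acids to the mitochondrion, was at 4269.6 and 4851 in control and 5879 and 5176 in MED13-LKO (0.28 ± 0.16, adjusted p = 0.349), and Pdk4 at 109.8 and 95.7 in control and 61.6 and 156 in MED13-LKO with overlapping groups. Of 27 genes of oxidative phosphorylation none was called and the median was -0.02; the smallest p-values were those of Cox6c (-0.28 ± 0.10) and Cox4i1 (-0.16 ± 0.07), with adjusted p = 0.126 and 0.226. Of 18 genes of triglyceride and lipid droplets, Cd36 rose and Lpin2, a phosphatidate phosphatase, fell (4678 and 5244 against 2283 and 2551, -1.04 ± 0.19, adjusted p = 0.0113). Of 14 genes of apolipoproteins and VLDL, 5 fell and 1 rose. Apoc3, which restrains lipoprotein lipase, was at 18912 and 17686 in control and 9654 and 9735 in MED13-LKO (-0.92 ± 0.12, adjusted p = 0.0023). Apom, which carries sphingosine 1-phosphate, was at 2809.7 and 3168 in control and 1312 and 1598 in MED13-LKO (-1.04 ± 0.19, adjusted p = 0.0113). Mttp, which loads lipid onto apolipoprotein B, was at 9643 and 9410.1 in control and 6562 and 6926 in MED13-LKO (-0.50 ± 0.07, adjusted p = 0.00263), and Apoa2 and Apoc1 fell by 0.44 and 0.43. Apoc2, the activator of lipoprotein lipase, rose from 2146 and 2143 to 3831 and 3533 (0.78 ± 0.07, adjusted p = 0.000314), and shares 78.8% of its subsequences with other genes.

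Of 19 bile acid genes, 5 fell (median -0.38). Slc27a5, which activates bile acids for conjugation, was at 20295 and 20159 in control and 11969 and 12775 in MED13-LKO (-0.71 ± 0.07, adjusted p = 0.000509), and passed under every alternative. Cyp8b1, the sterol hydroxylase that sets the share of cholic acid, was at 5560 and 4707 in control and 767 and 2104 in MED13-LKO (-2.01 ± 0.36, adjusted p = 0.011), with MED13-LKO replicate 1 far below replicate 2; the value was -1.28 without MED13-LKO replicate 1 and -2.74 without replicate 2, and the call was lost without either control replicate (adjusted p = 0.0693 and 0.0501) and with only these 4 libraries in the fit (adjusted p = 0.0574). Cyp27a1, Abcc3 and Nr1h4, which encodes the bile acid receptor FXR, fell by 0.56, 0.86 and 0.54, and Cyp7a1, the rate-limiting enzyme of bile acid synthesis, was at 5326 and 11156 in control and 5948 and 5458 in MED13-LKO (-0.44 ± 0.37, adjusted p = 0.57). Of 10 urea cycle genes, Cps1 (-0.60) and Asl (-0.64) fell, and of 21 genes of amino acid catabolism, Hgd (-0.42) and Prodh (-0.53) fell and Aldh4a1 (0.40) rose; their medians were -0.29 and -0.05.

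Enzymes of drug metabolism were divided. Of 19 xenobiotic P450 genes and regulators, 4 fell, all of the Cyp2c family: Cyp2c29 at 50366 and 51791 in control and 23086 and 27895 in MED13-LKO (-1.01 ± 0.12, adjusted p = 0.0015), and Cyp2c37, Cyp2c50 and Cyp2c54 with log2 fold changes of -1.40, -1.20 and -1.49. Each of these 4 shares over 10% of its subsequences with another gene, and among the 10 genes of the list under that limit none fell. Cyp2c55, of the same family and with 3.41% shared, rose from 90.1 and 82.6 to 324 and 357 (1.97 ± 0.23, adjusted p = 0.00107). The replicates of Cyp2c29 and Cyp2c55 lay close together in both genotypes. Of 36 phase II enzymes, 8 fell and 4 rose, but the fits without each library called 2, 1, 1 and 1 lower and 3, 3, 2 and 3 higher. Ugt1a9, a glucuronosyltransferase, was at 2630.4 and 2949 in control and 1156 and 1079 in MED13-LKO (-1.32 ± 0.18, adjusted p = 0.00276). Gsta3, Gstm1, Gstm3, Mgst1, Ugt1a6a and Ugt2b5 also fell by 0.35 to 0.96 on the log2 scale. Tpmt, thiopurine methyltransferase, rose from 1095 and 920.4 to 2089 and 2834 (1.28 ± 0.15, adjusted p = 0.001), and Gstk1, Sult5a1 and Nnmt rose by 0.45, 1.47 and 1.03. None of 10 NRF2 and metallothionein genes passed, with Srxn1 at 0.52 ± 0.15 and Gclm at -0.34 ± 0.13. Of 13 pericentral genes of the Wnt programme 4 fell, Glul, Rgn, Slc1a2 and Cyp27a1, by 0.52 to 0.79.

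Secreted proteins of the liver mostly gave small negative values. Of 27 complement and coagulation genes, 5 fell (C8a, F10, Plg, Serpinc1 and Serpinf2) and Pros1, the anticoagulant protein S, rose from 1283 and 1158 to 2328 and 2193 (0.89 ± 0.13, adjusted p = 0.00479); the median was -0.25. Of 21 acute phase genes, Serpina3n fell (-0.62 ± 0.11, adjusted p = 0.0121) and Saa4 rose from 3476 and 3935 to 7915 and 8669 (1.16 ± 0.15, adjusted p = 0.00202). Of 19 hepatokines, 4 fell, Enho, Igf1, Fetub (-0.40 ± 0.08) and Ahsg (-0.59 ± 0.10), the last encoding fetuin-A. Of 26 nuclear receptors and liver identity factors, Esr1, the estrogen receptor, rose from 385 and 329 to 599 and 713 (0.87 ± 0.21, adjusted p = 0.0394) and Nr1h4 fell. These calls are 7.69% of that list and those of the acute phase list 9.52%, near the 6.03% of all genes tested. Of the 26 values 20 were negative, with a median of -0.13. Of 18 clock genes 1 rose (5.56%, beside 6.03% of all genes tested), Bhlhe41 (33.7 and 17.6 against 122 and 91.7, 2.07 ± 0.46, adjusted p = 0.0282). It went against most of its list, in which 15 of 18 values were negative and the median was -0.31. In 13 of them both MED13-LKO values lay below both control values, beside 27.2% of all genes tested.

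Of 31 interferon and antigen presentation genes, 6 rose and none fell (median 0.26). Among the 16 that share under 10% of their sequence with another gene, 3 rose and the median was -0.02. Usp18, which restrains interferon signalling, was at 112 and 82.6 in control and 251 and 210.3 in MED13-LKO (1.25 ± 0.19, adjusted p = 0.0046). Irf7 was at 349.7 and 255.7 in control and 566 and 530.5 in MED13-LKO (0.87 ± 0.17, adjusted p = 0.0167), and Psmb8, of the immunoproteasome, at 224 and 163 in control and 378 and 391 in MED13-LKO (1.005 ± 0.20, adjusted p = 0.019). Control replicate 2 was the lowest library for each of these 3 genes. Psmb9, H2-D1 and H2-T23 rose by 1.28, 0.47 and 0.62. Without each library in turn 9, 1, 0 and 1 members rose. The Kupffer cell markers that moved with them, Cd5l and Marco, are given above, and their part, and that of the neutrophil markers, was not tested.

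Of 14 genes of NAD metabolism, 4 rose and 2 fell. Nnt, the mitochondrial transhydrogenase, a gene in which C57BL/6J mice are known to carry a deletion of several exons, was at 929.9 and 1004 in control and 3462 and 3233 in MED13-LKO (1.79 ± 0.23, adjusted p = 0.00228), or 3.46 times the control mean, and passed under every alternative. It was at 575 and 566 against 2952 and 3687 in the fasted state and at 529 and 969 against 2617 and 3341 with fructose, so that the 6 MED13-LKO libraries lay above the 6 control libraries. The values are per gene and show no exon, and 47.8% of the subsequences of Nnt occur in another gene. A difference in genetic background between the lines, which the labels do not describe, and the loss of MED13 cannot be told apart for Nnt. The same limit holds for every gene of this comparison. Among them are the ribosomal genes below and the 326 genes called in the same direction in all 3 diets. Nnmt, nicotinamide N-methyltransferase, was at 1216 and 1141 in control and 2336 and 2468 in MED13-LKO (1.03 ± 0.09, adjusted p = 0.000282). Nmnat3 and Qprt, which make NAD, rose by 1.23 and 0.76, and Haao and Acmsd of the kynurenine route fell by 0.53 and 1.03.

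Genes outside the lists were taken by size, from protein-coding genes that averaged 100 or more over the 12 libraries and shared under 10% of their sequence with another gene. Among those that fell, Sucnr1, the succinate receptor, was at 1171 and 809.6 in control and 157 and 182 in MED13-LKO (-2.52 ± 0.20, adjusted p = 0.000153). Mme, the peptidase neprilysin, was at 534 and 540.3 in control and 86.8 and 101 in MED13-LKO (-2.50 ± 0.18, adjusted p = 7.09e-05). Reck, an inhibitor of matrix metalloproteinases, was at 474 and 204 in control and 60.7 and 57.5 in MED13-LKO (-2.38 ± 0.33, adjusted p = 0.00328). Control replicate 1 held more than control replicate 2 in Reck, but both lay above the MED13-LKO pair. Depp1, a FOXO target (247 and 308 against 53.1 and 71.8, -2.14 ± 0.20), Sult2a8, a sulfotransferase (17365 and 25628 against 4324 and 5327, -2.14 ± 0.23), Csad, which makes the precursor of taurine (5927 and 8407 against 2086 and 2203, -1.72 ± 0.27), and Car3, carbonic anhydrase 3 (32708 and 42011 against 9288 and 13919, -1.70 ± 0.27), also fell.

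Among those that rose, Cox6b2, the testis form of a cytochrome oxidase subunit, was at 5.09 and 2.06 in control and 201 and 171 in MED13-LKO (5.43 ± 0.47, adjusted p = 0.000212). Fam131c was at 20.05 and 21.7 in control and 221 and 232 in MED13-LKO (3.38 ± 0.19, adjusted p = 1.02e-05), and Ifi27l2b, of the interferon-inducible Ifi27 family, at 24.1 and 34.1 in control and 295 and 287 in MED13-LKO (3.30 ± 0.22, adjusted p = 3.65e-05). In these genes each MED13-LKO value was several times each control value. Rcan2, an inhibitor of calcineurin, was at 43.02 and 55.7 in control and 399 and 339 in MED13-LKO (2.88 ± 0.28, adjusted p = 0.000374), and Asic5, an ion channel subunit, at 145 and 201 in control and 791 and 836 in MED13-LKO (2.24 ± 0.16, adjusted p = 7.09e-05). 5330417C22Rik, Igsf23, Robo1, Atp11a, Rab11fip4 and Chic1 rose by 2.13 to 4.25 on the log2 scale. Igsf23 (6.01 and 7.22 against 135 and 119), Robo1 (44.96 and 4.12 against 241 and 213), Atp11a (112 and 69.9 against 343 and 493) and Rab11fip4 (62.1 and 33.1 against 181 and 240.3) lost the call in at least 1 fit without 1 library.

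Some of the widest differences of the comparison were in ribosomal protein genes and their processed pseudogenes, copies of the spliced RNA set elsewhere in the genome. Rps26 was at 2908 and 3145 in control and 62.97 and 51.4 in MED13-LKO (-5.71 ± 0.18, adjusted p = 2.23e-07), and its copy Rps26-ps1 was at 3.03 and 0 in control and 1220.5 and 1272 in MED13-LKO. Rps3a1 was at 7217 and 8178 in control and 793 and 756 in MED13-LKO (-3.31 ± 0.12, adjusted p = 4.15e-07), and its copies Rps3a2 and Rps3a3 summed to 16.1 and 8.29 and 3385 and 3751. Rpl34 was at 2721 and 3131 in control and 238 and 288 in MED13-LKO (-3.47 ± 0.13, adjusted p = 7e-07), and Rpl34-ps1 at 5.07 and 4.18 in control and 909 and 1171 in MED13-LKO. In each family the parent was high in control and the copy high in MED13-LKO. Rpl30 was at 2255 and 2575 in control and 742 and 906 in MED13-LKO (-1.55 ± 0.13, adjusted p = 0.000184), while Gm12191 was listed at 0 in both control libraries and at 750.2 and 894 in MED13-LKO. Gm12191 is annotated as a processed pseudogene and was taken as the copy of Rpl30, but the 2 were not aligned and the pairing was not checked. Of the summed normalized count of parent and copies, not corrected for length, the copies took 95.1 and 96.1% in the MED13-LKO libraries for Rps26, 81.01 and 83.2% for Rps3a1, 79.3 and 80.3% for Rpl34 and 50.3 and 49.7% for Rpl30. The family sums differed less than the parents: 2911 and 3145 in control and 1283 and 1323 in MED13-LKO for Rps26, and 2255 and 2575 and 1492 and 1799 for Rpl30. The same held in the other diets, where Rps26 was at 3176 and 3263 against 50.7 and 66.2 in the fasted state and at 3265 and 2629 against 54.3 and 69.9 with fructose.

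How alike the copies are is seen from the sequences (GENCODE M21, GRCm38). Over the coding sequence of the parent, Rps26-ps1 (chr8:107439131-107439579, minus strand) differs from Rps26 (chr10:128624534-128626747, minus strand) at 2 of 348 bases, and Rpl34-ps1 (chr6:71124610-71124963, plus strand) from Rpl34 (chr3:130726831-130730398, minus strand) at 2 of 354. Rps3a2 (chr14:88123017-88123808, minus strand) differs from Rps3a1 (chr3:86137940-86142702, minus strand) at 4 substitutions and 3 gap positions of 795. Identity was 99.1% to 99.4% in these pairs and 98.9% in Rps3a3. A stretch of 90 coding bases of each of these 3 pairs is shown, 5′ to 3′, since reads from it can be assigned only by the differing bases, which are in capitals: bases 225 to 314 of Rps26, 611 to 700 of Rps3a1 and 87 to 176 of Rpl34.
Rps26: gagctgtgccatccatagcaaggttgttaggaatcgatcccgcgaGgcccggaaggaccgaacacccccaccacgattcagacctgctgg
Rps26-ps1: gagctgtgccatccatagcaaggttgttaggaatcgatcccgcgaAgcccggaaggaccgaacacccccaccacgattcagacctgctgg
Rps3a1: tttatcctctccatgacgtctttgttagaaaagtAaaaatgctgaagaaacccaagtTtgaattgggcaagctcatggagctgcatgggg
Rps3a2: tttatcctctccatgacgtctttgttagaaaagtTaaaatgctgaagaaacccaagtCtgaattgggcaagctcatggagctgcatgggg
Rpl34: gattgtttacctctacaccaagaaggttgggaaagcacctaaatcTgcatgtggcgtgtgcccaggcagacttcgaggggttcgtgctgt
Rpl34-ps1: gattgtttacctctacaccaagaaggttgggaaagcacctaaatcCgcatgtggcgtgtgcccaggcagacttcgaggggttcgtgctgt
Reads that leave out these bases could have been counted on either gene, and the values of parents and copies are uncertain to that extent. Of all genes tested 23.3% shared at least 10% of their 31-base subsequences with another gene, beside 29.7% of those called, 50.9% of those called with a log2 fold change beyond 2 and 60.3% beyond 3. Of 190 pseudogenes tested 20 rose and 6 fell (13.7%). Gm16867, which fell from 166 and 168 to 8.15 and 5.20, shares 98.9% of its sequence in this way and is likewise uncertain.

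**Figure D4:**
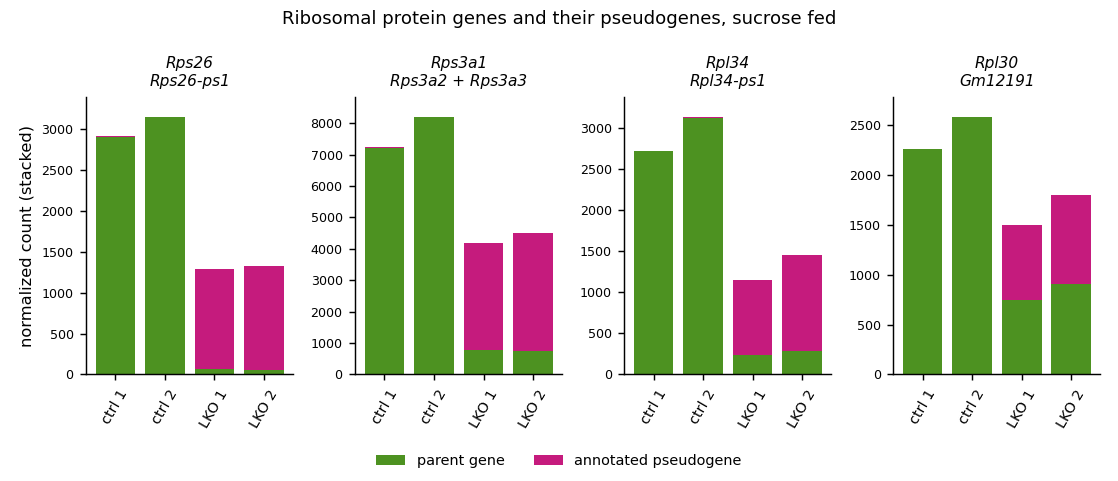
Summed normalized count (y axis, linear from 0) of 4 ribosomal protein genes (green) with their processed pseudogenes (magenta) stacked on top, for the 4 sucrose libraries (x axis). Control bars are nearly all parent, and in the MED13-LKO bars the copies take from 49.7% (Rpl30) to 96.1% (Rps26) of the sum. Gm12191 was taken as the copy of Rpl30 without an alignment.

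The called genes were then read in the other diets, whose mice were others. All 3 diets were tested in the same fit, however, so that each gene had the same SE in each (0.175 for Rps26). A gene with a small SE was thus favoured for a call in every diet. The shares of all genes given below are therefore no independent baseline. With only the groups compared in the fit, all genes gave 886 calls in the fasted state and 163 with fructose. Sharing of calls between diets was not tested in those fits. Of the 334 genes that rose with sucrose, 308 had the same sign in the fasted state and 181 were called there in the same direction, against 4.12% of all genes; with fructose these were 315 and 199, against 3.74%. Of the 412 that fell, 387 had the same sign in the fasted state and 242 were called, against 4.86%, and with fructose 382 and 223, against 3.95%. In all 3 diets 326 genes were called in the same direction, 141 higher and 185 lower. The 223 genes called in neither other diet were 29.9% of the 746, and a call missing from another diet does not show that the difference was absent there.

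The test of the difference itself passed for 18 genes against the fasted state (0.146% of those tested, 14 with a higher and 4 with a lower genotype difference with sucrose, 1055 at an unadjusted p under 0.05) and for 13 against fructose (0.105%, 10 and 3, 855 unadjusted), and 11 genes were in both. Without each library in turn the first count was 15, 28, 2 and 2 and the second 6, 11, 2 and 4. Acsl3, an acyl-CoA synthetase of lipid droplets, fell with sucrose from 1948 and 1715 to 580.2 and 712 (-1.51 ± 0.11, adjusted p = 7.09e-05). It was at 1069 and 1079.8 against 899 and 975 with fructose, and the genotype difference with sucrose was lower than that with fructose (-1.31 on the log2 scale, SE 0.16, adjusted p = 0.0151). The 2 control mice with sucrose stood above the other 10 libraries. Nnmt stood the other way: 1216 and 1141 in control with sucrose, against 3602 and 3196 in control fasted and 2872 and 2488 with fructose, while MED13-LKO lay between 2336 and 2593 in all 3 diets. The difference from the fasted state was 1.51 ± 0.13 (adjusted p = 0.00245) and from fructose 1.07 ± 0.13 (adjusted p = 0.0151). Oat, ornithine aminotransferase, was at 15199.9 and 15719 in control and 13796 and 13218 in MED13-LKO with sucrose (-0.19 ± 0.10, adjusted p = 0.324) and at 27508 and 22253 against 8922 and 8902 fasted, a difference between diets of 1.28 ± 0.15 (adjusted p = 0.0172). Slc25a15, the ornithine transporter of mitochondria, differed by 0.70 ± 0.10, and Paqr9, Gprin3 and Ddx17 by -0.98 ± 0.13, -1.07 ± 0.16 and -1.26 ± 0.19, from the fasted state.

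Immunoglobulin genes and pseudogenes made up most of the rest. Ighv1-50, a heavy chain variable segment, was at 1.02 and 0 in control and 189.5 and 196 in MED13-LKO with sucrose, and between 31.98 and 47.1 in the 8 libraries of the other diets. Ighg1, the IgG1 constant region, was at 4.02 and 0 in control and 136 and 173 in MED13-LKO, and between 19.7 and 46.1 elsewhere. So the control libraries with sucrose were the lowest of the 12 and the MED13-LKO libraries with sucrose the highest. The processed pseudogene Gm9457 was listed at 0 in both control libraries and was at 44.3 and 48.2 in MED13-LKO with sucrose, and Gm13456 was at 7.02 and 3.10 in control and 122 and 128 in MED13-LKO. Gm4883, Gm21399, Rps12-ps24 and Igkv11-106 were also listed at 0 in both control libraries and lay between 33.7 and 83.9 in MED13-LKO with sucrose. Igkv8-30 was listed at 0 in both control libraries and at 126 and 129 in MED13-LKO. Of 7 immunoglobulin genes tested, 6 rose, and their sum was 78.9 and 63.4 in control and 657 and 745 in MED13-LKO with sucrose, against 203 to 226 and 331 to 366 in the other diets. Igha was not particular to sucrose: its log2 fold change was 3.04 with sucrose, 3.25 in the fasted state and 4.58 with fructose, called in all 3. Jchain rose from 7.22 and 9.78 to 23.8 and 44.2 with sucrose and was also called with fructose, but not in the fasted state. Ighm overlapped between the genotypes (46.6 and 48.8 against 57.4 and 40.7). The lymphocyte markers given above overlapped as well, but only 3 of the 11 were tested, and Igha and Jchain are not among them. The part of such cells was not tested. Control lowest and MED13-LKO highest of all 12 libraries held for 14 genes with sucrose (0.113% of those tested), of which 9 were pseudogenes and 3 immunoglobulin genes, for 17 in the fasted state and for 13 with fructose, where no pseudogene was among them.

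Rprd2, which binds the tail of RNA polymerase II, was at 21.98 and 81.4 in control with sucrose and listed at 0 in both MED13-LKO libraries. In the fasted state and with fructose it was listed at 0 in control and at 34.1 and 159 and 141 and 40.8 in MED13-LKO, so that its presence changed sides between the diets. Nlrp12, of the inflammasome family, was at 43.97 and 90.7 in control and 42.3 and 35.5 in MED13-LKO with sucrose (-0.69 ± 0.47, adjusted p = 0.453), but at 165 and 186 against 2.06 and 0.928 in the fasted state. Fam177a was listed at 0 in both control libraries with fructose and between 53.3 and 119 in the other 10. Zeros of this kind can be a failed estimate, and log2 differences that involve them depend on the pseudocount.

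**Figure D5:**
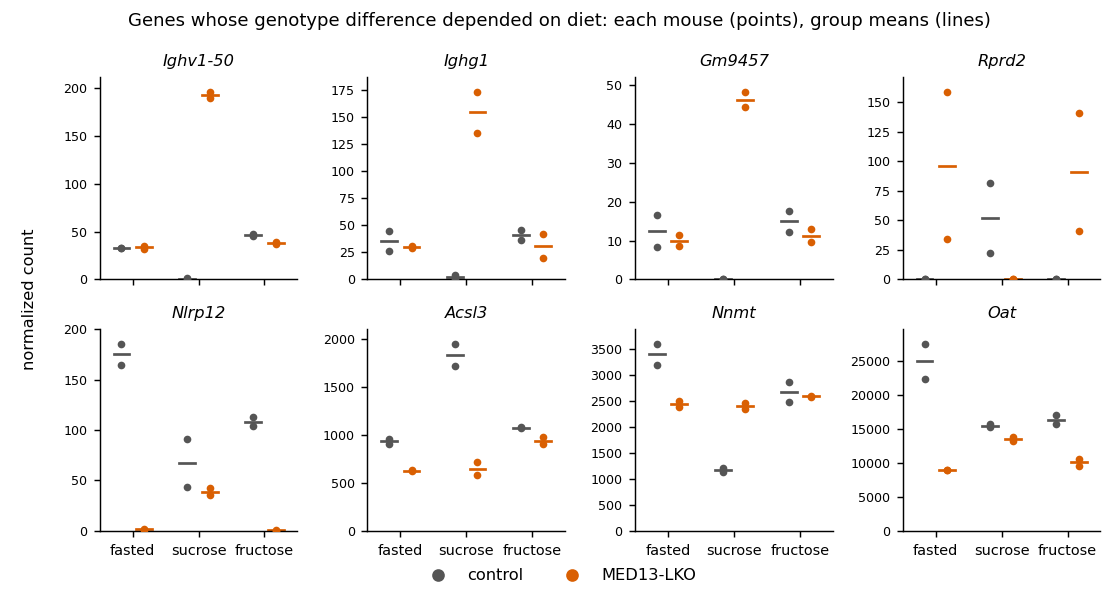
Normalized counts (y axis, linear from 0) of 8 genes called in the test of the genotype difference between diets, in the fasted state, with sucrose and with fructose (x axis), 1 point per mouse. Ighv1-50, Ighg1 and Gm9457 are lowest in control and highest in MED13-LKO with sucrose, Rprd2 is at 0 in MED13-LKO with sucrose and in control with the other diets, and Acsl3 is highest in control with sucrose.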

How the data were processed

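Liver total RNA of 12 mice, 2 in each of 6 groups of genotype and diet, was sequenced as paired reads. Before deposit, the authors ran Trim Galore 0.6.5 on the reads, estimated counts per transcript with kallisto 0.46.0 and normalized them with DESeq2 1.24.0 (tools and the mm10 build as the submitters' processing notes name them; the transcript annotation release is not given in the sources used here). The deposited values are normalized counts, a signal per gene that is not corrected for length, for 16346 genes. The values of a library above 0 and below 20 were set against whole multiples of its smallest step. Of these, 51.2% to 58.8% lay within 0.05 of a step of such a multiple (86.6% to 98.8% among genes with 1 annotated transcript). Many values were thus not whole reads, and no count model was run.

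Values were analysed as log2(normalized count + 1) for 12366 genes, those averaging 10 or more over the 12 libraries. limma 3.58.1 in R 4.3.3 was fitted to all 12 libraries with 6 group means and a mean-variance trend, and two-sided p-values were adjusted by Benjamini-Hochberg over all genes tested; a gene was called at an adjusted p under 0.05. The genotype difference was tested with sucrose, in the fasted state and with fructose, and the differences between these as interaction terms. The fit was tested on simulated data first. The depth of about 16110000 to 24200000 reads on genes per library limits the values of low genes.

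Genes, lists and comparisons were chosen with earlier results of these data known. The text names the 10 genes called with the largest change in each direction, 15 in each direction among protein-coding genes averaging 100 or more and with under 10% shared sequence, genes the study measured, the called members of 36 lists (or the 2 with the smallest p) and the genes called in an interaction. Single values of a few members, which remain in the counts and medians of their lists, are not reported here. Positions and shared 31-base subsequences came from GENCODE M21 (12301 of the tested identifiers matched) and promoters from RefSeq GRCm38.p6. Alternatives were the pseudocount (0.1, 10), the filter (none, or an average of 100), 2 scalings, a replicate block, no trend, only the groups compared, genes with under 10% shared sequence, and leaving out each sucrose library.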

Additional observations from a re-analysis of the deposited data

Results flagged for a closer look

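The genotype difference with sucrose differed from that in the fasted state in 18 genes and from that with fructose in 13, by the interaction terms of the limma fit at an adjusted p under 0.05. Values are the log2 difference with sucrose minus that in the other diet, on log2(normalized count + 1), so that those of genes listed at 0 depend on the pseudocount. No cause was tested.

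Outside the immunoglobulin genes, pseudogenes and genes listed near 0, Nnmt differed by 1.51 from the fasted state and by 1.07 from fructose. Oat differed by 1.28 and Slc25a15 by 0.70 from the fasted state, and Acsl3 by -1.31 from fructose. With a mean of at least 100, only 2 calls against the fasted state remained, 2 higher and 0 lower. Paqr9 (-0.98), Gprin3 (-1.07) and Ddx17 (-1.26) were lower with sucrose than in the fasted state. In all 3 the genotype difference was positive in the fasted state and, for Ddx17, did not pass with sucrose. The limma calls of Gprin3 (adjusted p = 0.0491) and Paqr9 (adjusted p = 0.0492) with sucrose were each lost in 12 of the alternatives.

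Immunoglobulin genes differed from the fasted state by 7.06 (Ighv1-50), 6.29 (Ighg1) and 6.16 (Igkv11-106), and from fructose by 7.38, 6.60 and 5.82. The pseudogenes Rps12-ps24 (6.35), Gm21399 (5.88), Gm9457 (5.81), Gm4883 (5.30), Gm13456 (4.24), Gm12901 (4.20) and Gm6136 (3.32) differed from the fasted state, and Gm9457 (5.93), Gm4883 (5.47), Rps12-ps24 (5.46), Gm21399 (5.44) and Gm13456 (4.26) from fructose.

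Rprd2 differed by -11.67 from the fasted state and by -11.71 from fructose, Nlrp12 by 5.49 and 5.55, and Fam177a by -6.30 from fructose. In each of these 3 genes at least 1 group of 2 mice was listed at or near 0. The genotype difference of Rprd2 with sucrose was -8.73 with a pseudocount of 0.1 and -2.43 with one of 10, so these sizes are no measure of fold.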

How the results depend on the processing

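With 2 mice a group, the number of calls rests on each mouse. The 746 calls with sucrose became 467 without the mean-variance trend and 149 to 361 without 1 library, of which the lowest was without MED13-LKO replicate 1; they lay between 498 and 775 under the other alternatives. The 498 calls among genes with under 10% shared sequence were out of 9433 tested, beside 746 out of 12366 in the main fit. The cause of these shifts was not tested. The 18 interaction calls against the fasted state became 2 with a mean of at least 100, 8 with only the groups compared, 5 among genes with under 10% shared sequence (chosen after seeing the data), and 2 to 28 without 1 library. The 13 against fructose became 2, 4, 4 and 2 to 11. A replicate block gave 644 calls with sucrose, and 7 and 8 in the interactions. Same-numbered libraries of the 2 sucrose groups deviated with a correlation of -0.0266. With 1 difference per group, this value cannot show whether same-numbered mice were paired. In alternatives chosen after seeing the data, the 1110 calls in the fasted state became 711 without the trend and the 951 with fructose became 163 with only the groups compared. No named gene changed sign while called. Some that were not called did so without 1 library, such as Pck1 (-0.08 to 1.15) and Usf1 (-0.11 to 0.32). Scaling to equal 75th percentiles moved the median of all genes by 0.035 and turned the share of calls that were higher from 44.8% to 52.5%, and no list median moved by more than 0.0356. Of 183 named calls, 76 were lost in at least 1 fit other than those without 1 library.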

Other observations

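The called genes were unevenly placed. On chromosome 3, 71 of 609 genes tested (11.7%) were called with sucrose, 28 higher and 43 lower, beside 4.04% to 8.31% on the other chromosomes and 6.03% of all genes. Selenbp2, Hsd3b5, Rpl34, Rps3a1, Rprd2, Sucnr1, Mme, Car3, Asic5 and Elovl6, which are described above, lie there. Among windows of 10 Mb, the one from 60 to 70 Mb of chromosome 4, which holds the Mup cluster, had 14 of 48 genes called, all lower. Within 5 Mb on either side of Med13 on chromosome 11, 5 of 77 genes (6.49%) were called. Neighbouring genes are not independent, and no test was made of these shares.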
